A study of Homo sapiens with 28 samples.

Results

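The genes of cholesterol and lipid synthesis were examined in the human line SEM, an acute lymphoblastic leukemia of B-cell precursors with the MLL-AF4 fusion, after auxin-induced degradation of CTCF. They are 34 named genes of the 57820 read, chosen by symbol: 8 of the mevalonate arm, 10 of the sterol arm, 5 that control SREBP, 1 sterol carrier, 5 of the LXR and export arm and 5 of the fatty acid arm. RNA-seq was available from 28 libraries in a 24 h set of 12 and a 6 h set of 16. In the 24 h set, CTCFAID2 cells were treated with 5-Ph-IAA (n = 4, against 4 untreated) and WT SEM cells, which carry no degron, with IAA (n = 2, against 2 untreated). In the 6 h set, lines labelled DeltaZ1, DeltaZ10, DeltaRBR and WT were treated with auxin (IAA in the labels) or left untreated (n = 2 each). Per the study's methods, CTCFAID2 cells express endogenous CTCF fused to a miniAID degron and mClover3, together with the F74G form of the plant F-box protein OsTIR1 from a lentiviral MND promoter. They were made from a line that also carries wild-type OsTIR1 under doxycycline control. All lines of the 6 h set are taken from the study as such degron cells with an added CTCF, which is full length in the WT line and, in the deletion lines, lacks the first zinc finger (DeltaZ1), the tenth (DeltaZ10) or the RNA-binding region (DeltaRBR). The added CTCF is inducible by doxycycline per the study, and the labels of these libraries name auxin alone, so whether it was present with or without auxin is not known here. For lines with added CTCF the methods name 10 µM 5-Ph-IAA, where these labels name IAA, so the compound is not settled. The dose of 5-Ph-IAA is 1 µM in the sample titles and 10 µM in the treatment text. For WT SEM cells the methods name IAA, at a far higher dose than 5-Ph-IAA, together with doxycycline. Compound, dose, doxycycline and line thus cannot be told apart between CTCFAID2 and WT cells. The methods name DMSO for the controls of these cells, where the labels name no IAA, and untreated here means without auxin.

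Cells make cholesterol from acetyl-CoA through mevalonate and squalene, and most enzymes of this route are switched on together by the SREBP transcription factors. When sterols are ample, SREBP is held in the endoplasmic reticulum by SCAP and the INSIG proteins. When sterols run low it is cut, enters the nucleus and binds sterol regulatory elements in promoters, often beside a CCAAT box. The LXR receptors respond to oxidized sterols instead and drive export of cholesterol through ABC transporters.

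The 24 h libraries held 45.7 to 59.8 M counts each and the 6 h libraries 25.8 to 60.7 M. All 7 B-lineage markers were expressed above 1 CPM (read counts scaled to library size) in every group, with a summed level between 928 and 1447 CPM. The 4 T cell markers summed to at most 0.137 CPM and the 5 erythroid markers to at most 0.0299 CPM. In the 24 h set, summed B-lineage markers were 1304 to 1336 CPM in treated and 1133 to 1159 CPM in untreated CTCFAID2 cells, and 928 to 979 CPM in treated and 992 to 1016 CPM in untreated WT cells. Of 5 myeloid markers, 3 were above 1 CPM in every group, and at 6 h their sum over all 5 was 19.1 to 24.5 CPM with auxin and 31.5 to 44.3 CPM without it. At 24 h it was 32.8 to 35.9 CPM in treated and 37.1 to 38.8 CPM in untreated CTCFAID2 cells, and 48.3 to 51.2 CPM in treated and 65.8 to 65.9 CPM in untreated WT cells. Of 4 stromal markers 1 to 2 were above 1 CPM, and COL3A1, COL1A2 or both were at 0 in each group. Their sum at 6 h was 71.6 to 79.4 CPM with auxin in the DeltaZ10, DeltaRBR and WT lines, 73.7 and 105 CPM with auxin in DeltaZ1, and 88.4 to 99.7 CPM without it. At 24 h it was 85.8 to 87.4 CPM in treated and 78.6 to 86.0 CPM in untreated CTCFAID2 cells, and 32.5 to 35.0 CPM in treated and 34.8 to 37.5 CPM in untreated WT cells. The part of these markers in the results was not tested. CTCF mRNA, whose protein is the target of the degron, was 250 to 256 CPM in treated and 144 to 151 CPM in untreated CTCFAID2 cells, 138 to 140 CPM in treated and 149 to 149.5 CPM in untreated WT cells, and 208 to 306 CPM with and 150 to 166 CPM without auxin at 6 h. As auxin acts on the protein and as added CTCF may be counted too, this mRNA does not check the labels. A library of the 6 h set stood apart: DeltaZ1 with auxin, replicate 2, was at -53.1 on the first principal component, against -24.5 to -10.5 in the other auxin libraries. At 6 h, counts of genes past the test are therefore given with and without it for the mean over lines and for the other lines. Without it, replicate 1 is the lone auxin library of DeltaZ1, assumed to vary like the other groups. For DeltaZ1, and for genes past the test in each line, such counts are given only with it.

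Of the 34 genes, 33 were tested in each set. ABCG1, a transporter that exports cholesterol, was near 0 and not tested. ABCA1, the other exporter, passed the filter on low values at 24 h through the treated CTCFAID2 libraries and thus had to differ there. Whether replicate libraries were grown as separate cultures is not in the labels, and p-values cover library-to-library spread alone, which may be technical. In bulk RNA, fewer cells of a type and less RNA per cell cannot be told apart. Where groups are said not to overlap, this describes the libraries of that gene alone. The share of all genes without overlap was not counted.

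Per length, the genes covered a wide range of levels in untreated CTCFAID2 cells. Squalene synthase FDFT1 was highest at 98.4 ± 7.45 TPM (SD, n = 4), followed by the desaturase FADS2 at 89.8 ± 6.71 TPM and farnesyl diphosphate synthase FDPS at 73.3 ± 5.40 TPM. FDFT1 and FADS2 did not differ beyond their spread. Next came the sterol isomerase EBP at 53.2 ± 2.91 TPM, FADS1 at 50.8 ± 4.13 TPM and HMGCS1 at 45.9 ± 3.17 TPM, with the spread of each overlapping that of its neighbour. The transcription factor genes SREBF1 and SREBF2 were alike within their spread, at 26.1 ± 2.68 and 25.8 ± 1.97 TPM. At the low end were NR1H3, which encodes LXRα, at 3.80 ± 0.435 TPM, the sterol dehydrogenase NSDHL at 3.70 ± 0.294 TPM, INSIG2 at 2.59 ± 0.419 TPM and ABCA1 at 0.0375 ± 0.0222 TPM.

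Promoters were read for 29 of the 34 genes from RefSeq on GRCh38.p14, as 250 bases before to 50 bases after the annotated start. They were searched on both strands for the sterol regulatory element TCACNCCAC, for its shortened form TCACNCC, which lies within it, and for the CCAAT box. The full element was found in 1 of 29, that of SREBF2 (3.4%, against 1.13% of 35116 promoters), the shortened form in 7 of 29 (24.1%, against 15.5%) and CCAAT in 16 of 29 (55.2%, against 34.6%). The shortened form was added after the result for the full one was seen. The background of 35116 promoters was not reduced to 1 per gene, as the 29 were, nor limited to genes expressed here. A match is a description and not a binding site. Shown are SREBF2 and the 8 genes that were lower past the test in all 4 lines at 6 h. Capitals mark these motifs, and ATTGG is CCAAT on the other strand.
SREBF2 (chr22:41832855-41833154, plus strand): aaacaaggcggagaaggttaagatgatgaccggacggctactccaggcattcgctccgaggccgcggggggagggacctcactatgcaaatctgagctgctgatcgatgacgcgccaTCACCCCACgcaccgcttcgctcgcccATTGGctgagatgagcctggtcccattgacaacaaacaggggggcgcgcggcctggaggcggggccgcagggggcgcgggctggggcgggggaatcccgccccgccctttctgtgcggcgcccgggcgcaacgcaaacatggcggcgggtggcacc
HMGCS1 (chr5:43313363-43313662, minus strand): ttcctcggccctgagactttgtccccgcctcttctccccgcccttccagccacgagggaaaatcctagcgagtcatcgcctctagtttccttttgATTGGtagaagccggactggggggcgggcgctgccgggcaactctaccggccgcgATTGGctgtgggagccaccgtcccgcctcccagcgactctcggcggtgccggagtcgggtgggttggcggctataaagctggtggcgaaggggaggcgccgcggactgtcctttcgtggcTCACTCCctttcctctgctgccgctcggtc
MVK (chr12:109573544-109573843, plus strand): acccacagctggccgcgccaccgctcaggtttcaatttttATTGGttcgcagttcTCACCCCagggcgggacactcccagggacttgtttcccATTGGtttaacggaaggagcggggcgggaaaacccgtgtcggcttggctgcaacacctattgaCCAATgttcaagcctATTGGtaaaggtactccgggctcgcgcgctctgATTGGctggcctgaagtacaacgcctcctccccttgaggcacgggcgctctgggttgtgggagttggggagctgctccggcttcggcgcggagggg
LSS (chr21:46228725-46229024, minus strand): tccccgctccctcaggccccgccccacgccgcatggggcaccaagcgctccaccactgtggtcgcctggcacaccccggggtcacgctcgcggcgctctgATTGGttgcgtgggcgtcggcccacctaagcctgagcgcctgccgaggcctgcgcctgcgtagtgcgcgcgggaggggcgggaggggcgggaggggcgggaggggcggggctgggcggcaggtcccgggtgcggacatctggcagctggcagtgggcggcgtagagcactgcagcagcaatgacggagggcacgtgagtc
DHCR7 (chr11:71448344-71448643, minus strand): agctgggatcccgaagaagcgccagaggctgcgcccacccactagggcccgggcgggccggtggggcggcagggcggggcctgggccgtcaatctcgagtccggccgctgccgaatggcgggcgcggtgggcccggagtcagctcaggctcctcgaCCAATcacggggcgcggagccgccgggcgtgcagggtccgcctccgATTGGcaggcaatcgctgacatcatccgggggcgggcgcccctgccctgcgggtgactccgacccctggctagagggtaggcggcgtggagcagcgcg
MSMO1 (chr4:165327419-165327718, plus strand): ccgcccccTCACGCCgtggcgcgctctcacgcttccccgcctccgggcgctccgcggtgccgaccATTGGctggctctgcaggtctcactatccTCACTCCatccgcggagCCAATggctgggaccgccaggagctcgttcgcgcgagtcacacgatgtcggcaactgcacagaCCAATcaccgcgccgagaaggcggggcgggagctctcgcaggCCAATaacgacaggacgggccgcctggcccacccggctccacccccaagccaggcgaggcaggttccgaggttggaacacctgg
INSIG1 (chr7:155297628-155297927, plus strand): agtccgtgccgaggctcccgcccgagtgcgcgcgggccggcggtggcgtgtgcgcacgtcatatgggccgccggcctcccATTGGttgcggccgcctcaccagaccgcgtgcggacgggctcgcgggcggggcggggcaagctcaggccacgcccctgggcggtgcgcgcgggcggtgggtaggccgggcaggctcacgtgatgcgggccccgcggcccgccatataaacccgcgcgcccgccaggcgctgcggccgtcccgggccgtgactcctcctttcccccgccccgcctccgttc
SCD (chr10:100346983-100347282, plus strand): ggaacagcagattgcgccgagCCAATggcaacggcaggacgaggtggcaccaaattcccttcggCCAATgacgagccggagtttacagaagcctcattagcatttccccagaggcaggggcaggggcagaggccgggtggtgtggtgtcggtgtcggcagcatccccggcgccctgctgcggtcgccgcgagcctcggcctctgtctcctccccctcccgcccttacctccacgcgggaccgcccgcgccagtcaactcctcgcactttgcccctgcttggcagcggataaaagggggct
FADS1 (chr11:61816954-61817253, minus strand): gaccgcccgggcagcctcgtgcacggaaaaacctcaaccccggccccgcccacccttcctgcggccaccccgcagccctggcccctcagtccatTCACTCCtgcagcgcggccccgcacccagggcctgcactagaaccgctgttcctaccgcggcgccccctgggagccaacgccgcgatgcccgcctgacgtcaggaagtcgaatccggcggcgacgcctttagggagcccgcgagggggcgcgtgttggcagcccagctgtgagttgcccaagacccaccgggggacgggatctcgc

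The first comparison asked how these genes differ after 24 h of auxin treatment that targets CTCF, whose protein is not measured in these data. In CTCFAID2 cells, genes of cholesterol synthesis were lower after 5-Ph-IAA by small amounts in nearly every step. Of 33 tested genes, 23 were lower and 5 higher past the test (adjusted p at most 0.05, limma-voom, Benjamini-Hochberg over 13973 genes), against 29.5% of all genes lower and 29.2% higher. Their median log2 change was -0.27, against 0.00 (-0.002) for all genes. Without ABCA1 the counts were 23 lower and 4 higher of 32.

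In the mevalonate arm, 5 of 8 genes were lower and 2 higher. HMGCS1, the synthase that makes HMG-CoA, was at 188, 176, 196 and 180 CPM in treated cells, against 252, 252, 272 and 249 CPM in untreated cells, and fell by 0.47 on the log2 scale (SE 0.04, adjusted p = 1.63e-07). The groups did not overlap. MVD, which forms isopentenyl diphosphate, was at 22.8, 24.9, 23.3 and 25.4 CPM in treated cells, against 32.6, 31.1, 34.6 and 32.6 CPM in untreated cells (log2 change -0.44, SE 0.05, adjusted p = 2.36e-06). Mevalonate kinase MVK was at 18.2 to 19.1 CPM in treated and 23.3 to 24.9 CPM in untreated cells (log2 change -0.40, SE 0.04, adjusted p = 3.04e-06). For both enzymes all 4 treated libraries were below all 4 untreated ones. ACAT2 (-0.27), an acetyl-CoA acetyltransferase, and FDPS (-0.19) were lower too, and IDI1, the isopentenyl diphosphate isomerase, did not pass (-0.11, adjusted p = 0.0549 in limma).

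PMVK, the kinase that acts after MVK, went the other way. It was at 25.6, 28.3, 25.1 and 26.5 CPM in treated cells, against 20.6, 18.99, 18.3 and 17.9 CPM in untreated cells, and rose by 0.48 on the log2 scale (SE 0.05, adjusted p = 3.29e-06). Every treated library was above every untreated one. GGPS1, which makes geranylgeranyl diphosphate for protein prenylation, rose by 0.15 (SE 0.04, adjusted p = 3.51e-03), with 31.0 to 33.9 CPM in treated and 28.8 to 30.4 CPM in untreated cells.

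The sterol arm, which turns farnesyl diphosphate into cholesterol, was lower in all 10 of its 10 genes, by 0.13 to 0.58 on the log2 scale. Lanosterol synthase LSS, which closes the sterol rings, was at 46.0, 51.1, 47.6 and 49.3 CPM in treated cells, against 71.4, 72.4, 73.5 and 72.9 CPM in untreated cells (log2 change -0.58, SE 0.03, adjusted p = 5.59e-09). DHCR7, the reductase of the last step, was at 26.4, 27.2, 24.7 and 27.0 CPM in treated cells, against 38.4, 38.1, 37.5 and 38.1 CPM in untreated cells (log2 change -0.53, SE 0.04, adjusted p = 2.27e-08). Neither gene overlapped between groups. NSDHL was 10.6 to 11.2 CPM in treated and 14.1 to 15.2 CPM in untreated cells (log2 change -0.45, SE 0.05, adjusted p = 1.27e-06), and the methylsterol oxidase MSMO1 was 60.3 to 68.4 CPM in treated and 84.1 to 88.7 CPM in untreated cells (log2 change -0.40, SE 0.04, adjusted p = 6.90e-07). The other members fell less, namely squalene epoxidase SQLE (-0.31), FDFT1 (-0.21), EBP (-0.19), the lanosterol demethylase CYP51A1 (-0.15), the sterol reductase TM7SF2 (-0.15) and the ketosteroid reductase HSD17B7 (-0.13). The groups of TM7SF2 overlapped, at 13.3 to 15.7 CPM in treated and 14.8 to 16.4 CPM in untreated cells.

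Of the genes that control SREBP, SCAP and INSIG1 were lower, SREBF2 was higher and SREBF1 and INSIG2 did not pass. SCAP, the escort of SREBP, was 63.7 to 70.3 CPM in treated and 83.3 to 87.8 CPM in untreated cells (log2 change -0.35). INSIG1, which retains SCAP and is itself an SREBP target, was at 202, 185, 204 and 181 CPM in treated cells, against 230, 242, 241 and 232 CPM in untreated cells (log2 change -0.29, SE 0.04, adjusted p = 2.12e-05). SREBF2, which encodes the SREBP that favours sterol genes, was at 249.8, 254, 239 and 250.1 CPM in treated cells, against 227, 235, 222 and 232 CPM in untreated cells (log2 change 0.12, SE 0.03, adjusted p = 3.67e-03). These SREBF2 groups did not overlap, and its small rise was opposite in sign to the fall of INSIG1. SREBF1, which encodes the SREBP of fatty acid genes, had a log2 change of 0.09 (SE 0.04, adjusted p = 0.0811 in limma) and overlapped between groups. INSIG2 had a log2 change of 0.00 (-0.0005, SE 0.06).

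In the fatty acid arm, 4 of 5 genes were lower. FADS1, the Δ5 desaturase of polyunsaturated fatty acids, was at 229, 220.2, 225 and 237 CPM in treated cells, against 379, 379, 371 and 387 CPM in untreated cells (log2 change -0.74, SE 0.03, adjusted p = 3.24e-11). This was the lowest log2 change among the 33 tested genes, and the groups lay far apart. Its neighbour FADS2 overlaps it on the opposite strand (hg19, FADS1 chr11:61567099-61596790, FADS2 chr11:61560452-61634826). FADS2 was 458 to 476 CPM in treated and 483 to 489.5 CPM in untreated cells and did not pass despite no overlap (log2 change -0.06, adjusted p = 0.0734 in limma). Fatty acid synthase FASN was at 136, 159, 160.4 and 169 CPM in treated cells, against 201, 237, 205 and 212 CPM in untreated cells (log2 change -0.45, SE 0.07, adjusted p = 8.48e-05). The acetyl-CoA carboxylase ACACA was 142 to 157 CPM in treated and 189 to 199 CPM in untreated cells (log2 change -0.38, SE 0.04, adjusted p = 5.03e-07). SCD, which makes monounsaturated fatty acids, was at 198, 178, 195 and 185 CPM in treated cells, against 242, 246, 248 and 236 CPM in untreated cells (log2 change -0.36, SE 0.03, adjusted p = 3.91e-07). None of these 3 overlapped between groups.

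The LXR and export arm was mixed. MYLIP, a ubiquitin ligase that LXR induces and that targets lipoprotein receptors for degradation, was 25.6 to 28.9 CPM in treated and 34.8 to 35.3 CPM in untreated cells (log2 change -0.35, adjusted p = 1.91e-06 in limma). NR1H2, which encodes LXRβ, was higher (log2 change 0.14, SE 0.05, adjusted p = 0.041 in limma), but its groups overlapped and the call was lost without any 1 of 6 of the 8 libraries. NR1H3 did not pass (-0.12). ABCA1 was at 1.99, 1.63, 1.99 and 1.501 CPM in treated cells, against 0.414, 0.814, 0.571 and 0.533 CPM in untreated cells (log2 change 1.64, SE 0.18). ABCA1 passed the filter on low values through these treated libraries alone, which fixed its direction, so its call is no test result. It stayed among the lowest expressed of the genes in both. The sterol carrier STARD4 was lower (-0.29).

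Of 51 other lipid genes, a list that covers elongation, uptake and lipid oxidation, 14 were higher (27.5%, against 29.2% of all genes) and 19 lower (37.3%, against 29.5%), with a median log2 change of -0.05. The largest log2 changes were those of PLTP, the phospholipid transfer protein (-1.42, SE 0.06), LPIN1, a phosphatidate phosphatase (1.13, SE 0.03), the transporter ABCA7 (0.67, SE 0.06) and the elongase ELOVL6 (-0.65, SE 0.03), all past the test.

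In WT SEM cells, which have no degron, 13 of 33 genes were higher and 1 lower past the test after 24 h of auxin, against 9.35% of all genes higher and 9.57% lower. The other 19 genes did not pass, and 10 of the 33 log2 changes were negative. The median log2 change was 0.09, against 0.01 (0.015) for all genes. By arm, 7 of 10 sterol genes, 2 of 8 mevalonate genes, INSIG1, STARD4, MYLIP and FADS1 were higher.

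MYLIP was at 28.3 and 28.9 CPM in treated WT cells, against 20.9 and 20.3 CPM in untreated WT cells (log2 change 0.47, SE 0.06, adjusted p = 6.58e-05 in limma). MVD was at 22.01 and 24.8 CPM in treated cells, against 18.7 and 17.8 CPM in untreated cells (log2 change 0.36, SE 0.08, adjusted p = 5.09e-03 in limma). HSD17B7 was at 22.8 and 22.03 CPM in treated cells, against 17.2 and 18.6 CPM in untreated cells (log2 change 0.33, SE 0.06). Both treated libraries were above both untreated ones for these genes. INSIG1 was at 160 and 152 CPM in treated cells, against 130 and 124 CPM in untreated cells (log2 change 0.30, SE 0.06, adjusted p = 2.89e-03 in limma). LSS was at 52.0 and 53.8 CPM in treated cells, against 42.7 and 45.5 CPM in untreated cells (log2 change 0.26, SE 0.05). The rises of MSMO1 (0.27), CYP51A1 (0.26), STARD4 (0.26), MVK (0.25) and SQLE (0.23) also passed, as did those of FADS1, DHCR7 (0.19 each) and FDFT1 (0.13). ACACA was the gene that was lower, at 112 and 107 CPM in treated cells, against 124 and 123 CPM in untreated cells (log2 change -0.17, SE 0.05, adjusted p = 0.0323 in limma). SREBF1 (0.09), SREBF2 (0.04), SCD (0.02) and ABCA1 (-1.24, at 0.0785 to 0.087 CPM in treated and 0.186 to 0.237 CPM in untreated cells) did not pass. Among the 51 other lipid genes 7 were higher (13.7%, against 9.35% of all genes) and 5 lower (9.8%, against 9.57%), with the largest log2 changes in the receptor VLDLR (0.56), ELOVL6 (-0.52), the carnitine palmitoyltransferase CPT1A (0.50) and the sterol carrier NPC2 (0.41). The count of 14 rested on few libraries. It was 8 without treated replicate 2, 8 without untreated replicate 1 and 9 without untreated replicate 2, all higher, against 4.13%, 4.51% and 4.44% of all genes higher in these fits.

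**Figure D1:**
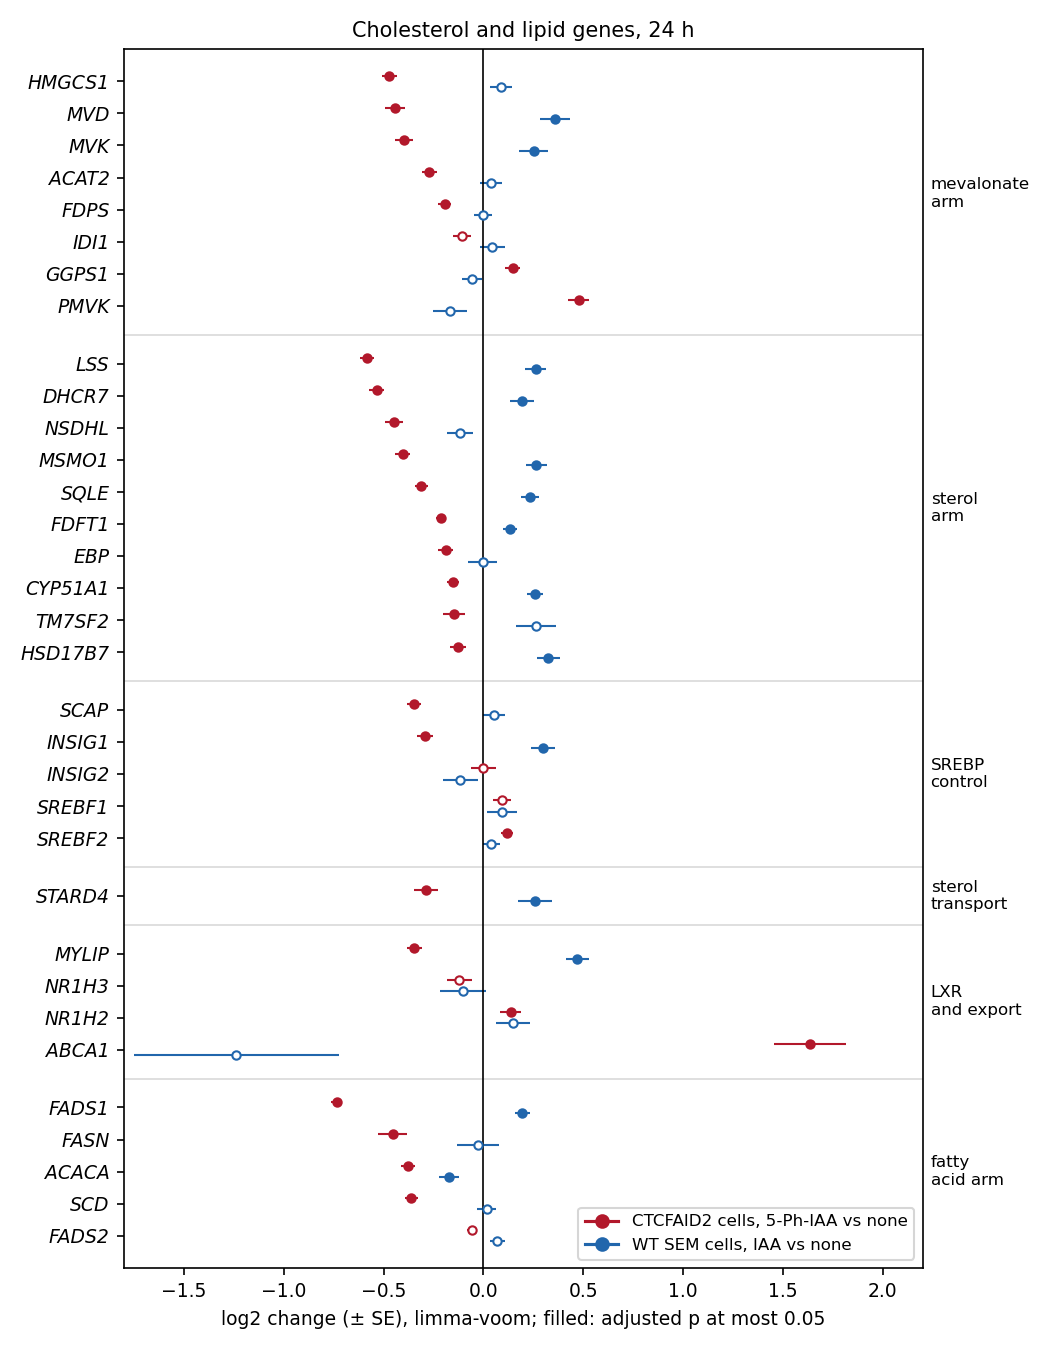
Log2 change with SE of the 33 tested genes at 24 h by arm, for 5-Ph-IAA against none in CTCFAID2 cells and IAA against none in WT SEM cells. Filled points passed the test. The 10 sterol genes are left of 0 in CTCFAID2 cells, and 7 of them are filled to the right of 0 in WT cells.

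The difference of both effects was tested within the same fit, each effect against its own untreated libraries. It was negative past the test for 23 of 33 genes and positive for 3, against 20.9% and 19.3% of all genes. Without ABCA1, which passed the filter through the treated CTCFAID2 libraries alone, 23 of 32 were negative and 2 positive. The median difference was -0.38, against -0.02 for all genes. Of the 23 genes that were lower in CTCFAID2 cells, 13 were higher past the test in WT cells, 9 did not pass there and 1 (ACACA) was lower. For 22 of the 23 the difference itself passed, but these genes were picked by the CTCFAID2 effect, which is part of the difference. This count is thus no separate support. For all genes lower in CTCFAID2 cells, neither the share higher in WT cells nor the share with a difference past the test was counted. The count of 13 genes thus has no such background either.

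The most negative differences were those of FADS1 (-0.93, SE 0.05, adjusted p = 3.38e-09), LSS (-0.85, SE 0.06, adjusted p = 1.58e-07), MYLIP (-0.82, SE 0.07, adjusted p = 4.95e-07) and MVD (-0.80, SE 0.09, adjusted p = 9.31e-06), all in limma. They were followed by DHCR7 (-0.73), MSMO1 (-0.67), MVK (-0.65), INSIG1 (-0.59), HMGCS1 (-0.56) and SQLE (-0.54). SCD differed by -0.38 (SE 0.06). Positive differences were found for PMVK (0.64, SE 0.10) and GGPS1 (0.20, SE 0.06), and for ABCA1 (2.87, SE 0.54), whose direction the filter on low values fixed. SREBF1 (0.00, SE 0.09) and SREBF2 (0.08, SE 0.05, adjusted p = 0.253 in limma) did not pass. Of the other lipid genes 8 were positive (15.7%, against 19.3% of all genes) and 16 negative (31.4%, against 20.9%), with the largest differences in PLTP (-1.46), LPIN1 (0.99), CPT1A (-0.96) and malic enzyme ME1 (-0.95). Untreated levels were not compared between CTCFAID2 and WT cells, since the share of counted genes with a non-whole count was 17.5 to 19.5% in CTCFAID2 and 7.10 to 7.52% in WT libraries.

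**Figure D2:**
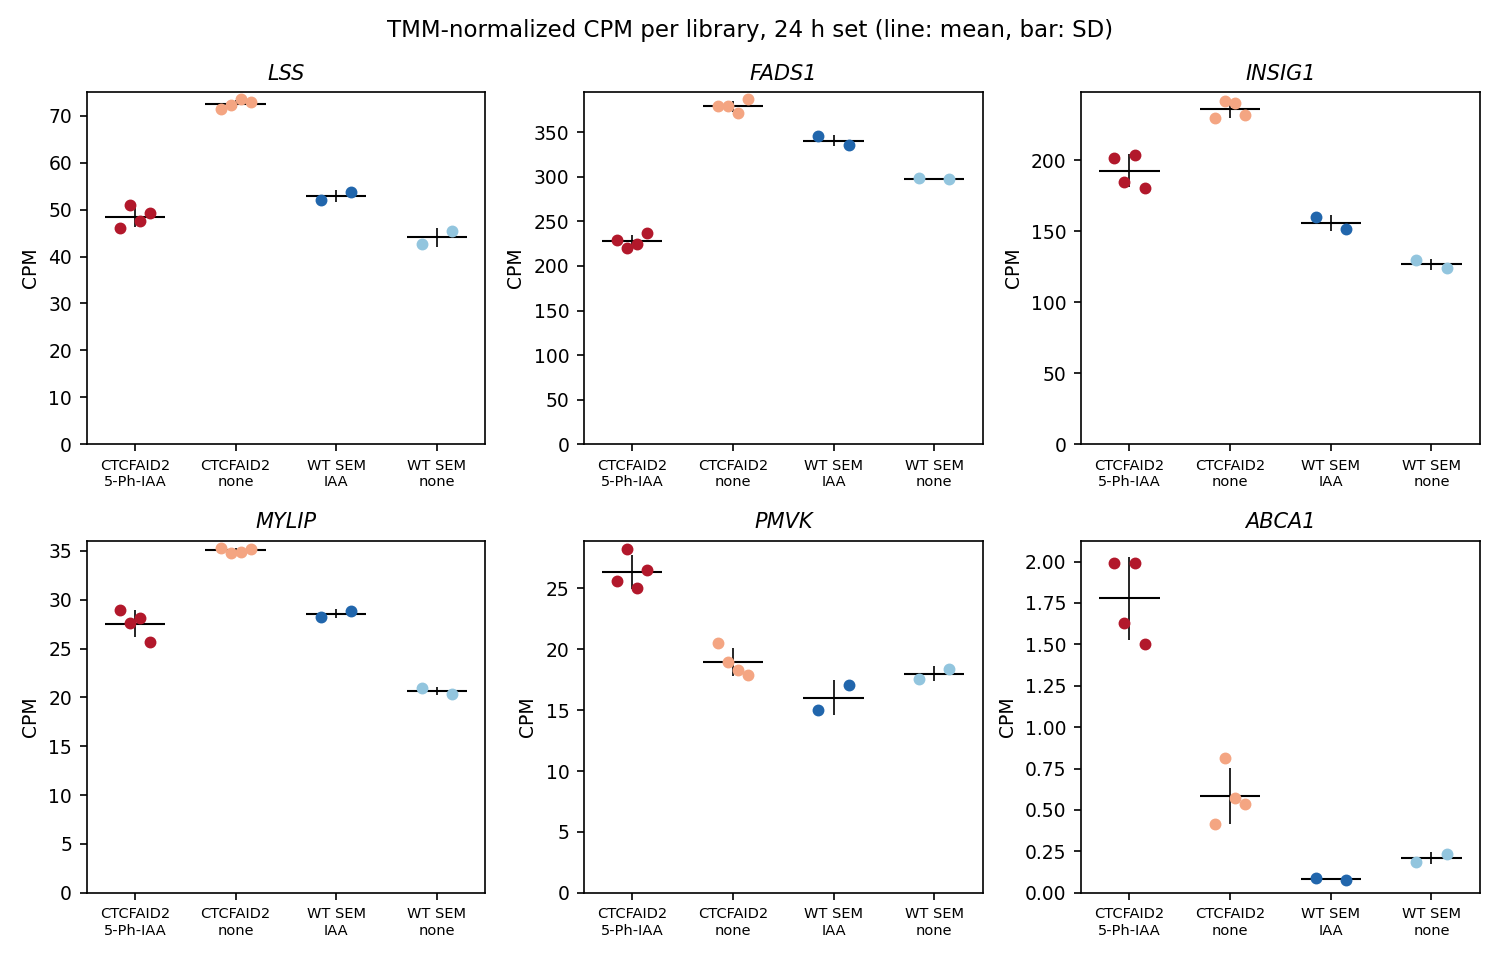
CPM in each library of the 24 h set for LSS, FADS1, INSIG1, MYLIP, PMVK and ABCA1, with treated left of untreated cells of each line (line, mean, bar, SD, n = 4 for CTCFAID2 and 2 for WT). LSS, FADS1, INSIG1 and MYLIP are below untreated in every treated CTCFAID2 library and above it in every treated WT library.

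At 6 h, the design asked what auxin does in degron cells that carry a deleted or a full-length CTCF. Genes of fatty acid and cholesterol synthesis and of SREBP control were lower with auxin. Averaged over the lines, 22 of 33 genes were lower and 2 higher past the test, against 26.4% of all 13902 genes lower and 25.1% higher. The median log2 change was -0.24, against -0.01 for all genes. Without DeltaZ1 auxin replicate 2, 24 were lower and 3 higher, against 28.4% and 27.0% of all genes in that fit.

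All 5 genes of the fatty acid arm (median log2 change -0.48) and all 5 that control SREBP (median -0.42) were lower. FASN was at 85.3 to 211 CPM (median 187) over the 8 auxin libraries, against 260.1 to 339 CPM (median 299) over the 8 untreated ones (mean log2 change -0.89, SE 0.14, adjusted p = 2.27e-04 in limma). Its lowest value was that of DeltaZ1 replicate 2, without which the lowest was 131 CPM and the log2 change -0.74. SCD was at 156 to 183 CPM (median 161) with auxin, against 253 to 276 CPM (median 264) without it (log2 change -0.69, SE 0.03, adjusted p = 1.34e-08 in limma). All auxin libraries of both genes were below all untreated ones. FADS1 (-0.48), ACACA (-0.30) and FADS2 (-0.27) were lower too.

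SREBF1 was at 61.9 to 105 CPM (median 85.5) with auxin, against 109.7 to 137 CPM (median 122) without it (log2 change -0.54, SE 0.09, adjusted p = 3.52e-04 in limma). SREBF2 was at 139 to 202 CPM (median 186) with auxin, against 228 to 268 CPM (median 238) without it (log2 change -0.44, SE 0.07, adjusted p = 2.55e-04 in limma). Neither overlapped between treatments. INSIG1 was at 128 to 177 CPM with auxin and 189 to 211 CPM without (-0.42, SE 0.03), and INSIG2 (-0.24) and SCAP (-0.18) were lower as well. In CTCFAID2 cells at 24 h, SREBF2 was higher and SREBF1 and INSIG2 did not pass.

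In the mevalonate arm, MVK was at 14.5 to 17.5 CPM (median 16.5) with auxin, against 23.1 to 28.4 CPM (median 25.4) without it (log2 change -0.61, SE 0.05, adjusted p = 1.10e-06 in limma), and HMGCS1 was at 183 to 221 CPM with and 261 to 305 CPM without auxin (-0.45, SE 0.03). MVD (-0.34) and FDPS (-0.22) were lower. GGPS1 was higher (0.19, SE 0.05), whereas ACAT2 (-0.08), IDI1 (-0.03) and PMVK (0.07) did not pass. Without DeltaZ1 auxin replicate 2, ACAT2 was lower (-0.14, adjusted p = 5.69e-04 in limma), PMVK was higher (0.20, adjusted p = 0.0267) and IDI1 still did not pass (-0.08). In the sterol arm 8 of 10 genes were lower. LSS was at 37.6 to 56.8 CPM (median 53.8) with auxin, against 67.3 to 84.1 CPM (median 78.1) without it (log2 change -0.59, SE 0.05, adjusted p = 3.72e-06 in limma). DHCR7 was at 17.6 to 27.9 CPM (median 26.3) with auxin, against 33.8 to 41.8 CPM (median 37.4) without it (log2 change -0.59, SE 0.06, adjusted p = 6.13e-06 in limma). The treatments did not overlap for either. HSD17B7 (-0.36), MSMO1 (-0.32), SQLE (-0.24), CYP51A1 (-0.24), FDFT1 (-0.16) and EBP (-0.12) followed, and NSDHL (-0.10) and TM7SF2 (0.04) did not pass. NR1H2 was higher (0.24, SE 0.05), and MYLIP (0.08), NR1H3 (-0.02), STARD4 (-0.07) and ABCA1 (-0.24) did not pass, though STARD4 was lower without DeltaZ1 auxin replicate 2 (-0.10, adjusted p = 0.0407 in limma). Among 50 other lipid genes tested, 14 were higher (28.0%, against 25.1% of all genes) and 11 lower, against 26.4% of all genes.

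**Figure D3:**
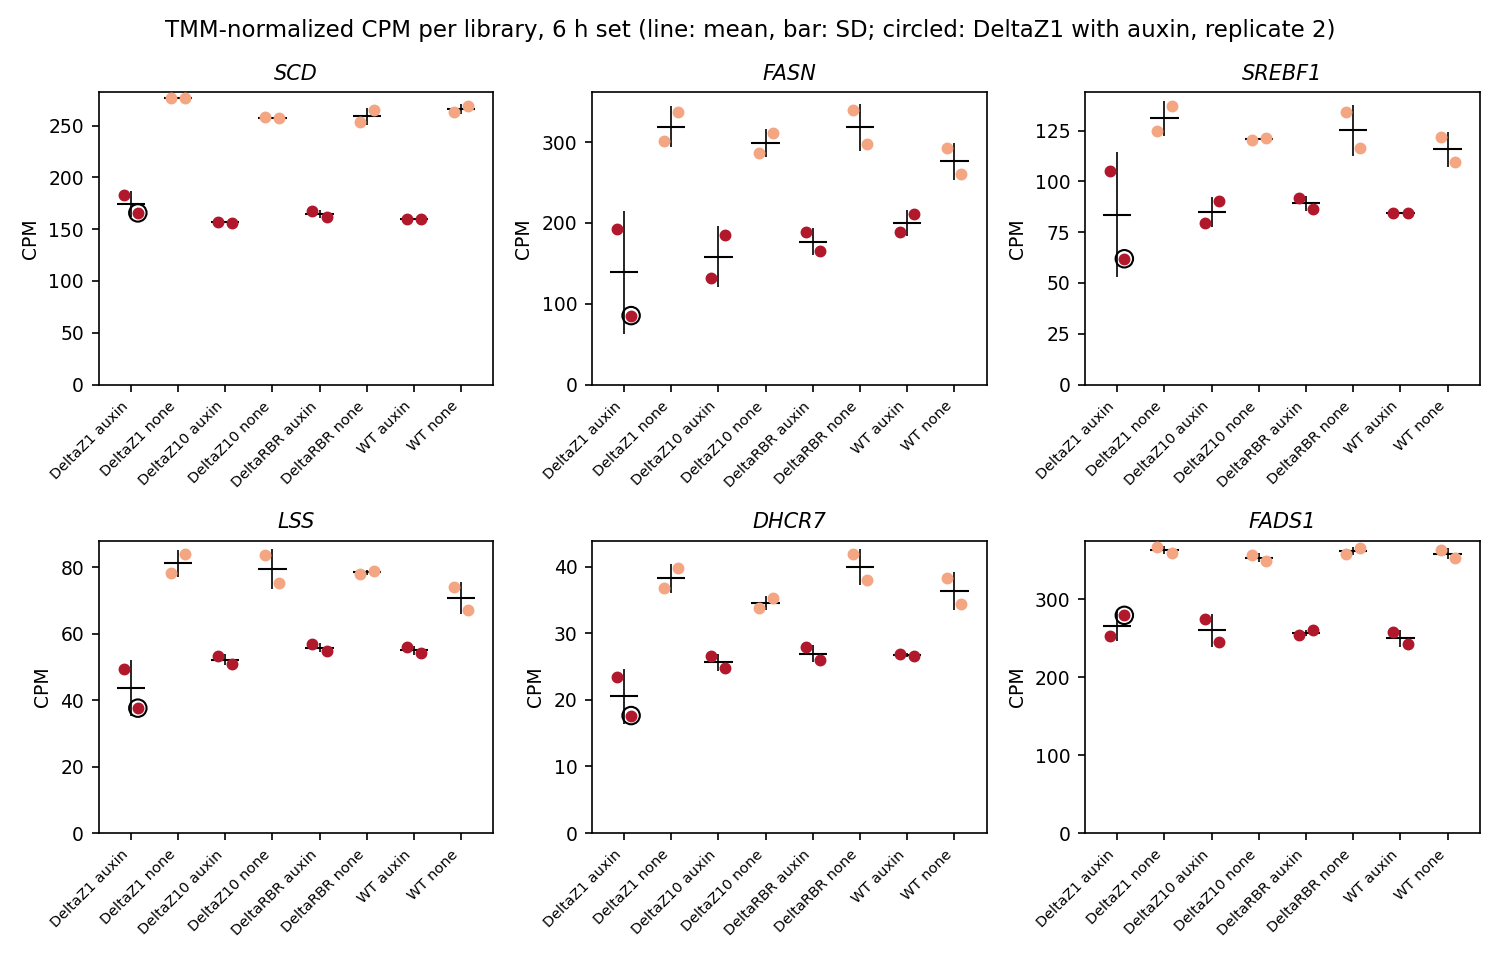
CPM in each library of the 6 h set for SCD, FASN, SREBF1, LSS, DHCR7 and FADS1, with auxin left of none in each line (line, mean, bar, SD, n = 2). The auxin libraries are below the untreated ones of every line, and the circled DeltaZ1 library is the lowest for FASN, SREBF1, LSS and DHCR7.

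Each line was also tested on its own libraries within the shared fit. In the DeltaZ1 line 20 genes were lower and 1 higher, against 16.4% and 17.1% of all genes. FASN was at 192 and 85.3 CPM with auxin, against 301 and 337 CPM without it (log2 change -1.32, SE 0.28). DHCR7 was at 23.4 and 17.6 CPM with auxin, against 36.7 and 39.8 CPM without it (-0.92, SE 0.11), and LSS at 49.5 and 37.6 CPM, against 78.3 and 84.1 CPM (-0.92, SE 0.11). In each case replicate 2 was the lower of the auxin pair. Without it, with replicate 1 as the lone auxin library of the line, the log2 changes of FASN, DHCR7 and LSS were -0.73, -0.70 and -0.71. That of GGPS1, the 1 higher gene, went from 0.34 to 0.19. When the DeltaZ1 libraries were fitted alone, 0 genes passed.

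In the DeltaZ10 line 14 genes were lower and 0 higher, against 9.24% and 8.88% of all genes. FASN was at 131 and 185 CPM with auxin, against 287 and 311 CPM without it (-0.94, SE 0.28, adjusted p = 0.0354 in limma). SCD was at 157 and 156 CPM with auxin, against 258 and 257 CPM without it (-0.72, SE 0.06), and MVK at 16.3 and 16.5 CPM, against 26.3 and 24.2 CPM (-0.61, SE 0.09). The pairs did not overlap. Without DeltaZ1 auxin replicate 2 there were 19 lower and 1 higher, against 32.2% of all genes past the test in either direction. Leaving out a library of the line gave 8 lower genes without auxin replicate 2, 7 without untreated replicate 1 and 8 without untreated replicate 2, against 5.42%, 4.12% and 3.45% of all genes lower.

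In the DeltaRBR line 11 genes were lower and 0 higher, against 5.68% and 4.8% of all genes. MVK was at 16.5 and 17.4 CPM with auxin, against 28.4 and 26.4 CPM without it (-0.69, SE 0.09). SCD was at 168 and 162 CPM with auxin, against 253 and 265 CPM without it (-0.65, SE 0.06), and DHCR7 at 27.9 and 26.0 CPM, against 41.8 and 38.0 CPM (-0.56, SE 0.11). Treated and untreated pairs were apart for all 3. Without DeltaZ1 auxin replicate 2 there were 20 lower and 2 higher, against 12.2% and 11.3% of all genes. Leaving out a library of the line gave 7 lower genes without auxin replicate 1, 6 without auxin replicate 2 and 7 without untreated replicate 1, against 1.72%, 1.3% and 1.8% of all genes lower.

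In the WT line, with full-length CTCF added, 10 genes were lower and 0 higher, against 7.21% and 6.45% of all genes. SCD was at 160 CPM in both auxin libraries (160.2 and 160.0), against 263 and 269 CPM without auxin (-0.73, SE 0.06, adjusted p = 2.08e-05 in limma). FADS1 was at 258 and 243 CPM with auxin, against 363 and 354 CPM without it (-0.52, SE 0.07). ABCA1 was at 0.507 and 0.421 CPM with auxin, against 1.02 and 0.909 CPM without it (-1.06, SE 0.28, adjusted p = 0.0279 in limma), a call near the filter that was lost with DESeq2 and without any 1 of the line's 4 libraries. Without DeltaZ1 auxin replicate 2 there were 16 lower and 1 higher, against 12.1% and 12.1% of all genes. Leaving out a library of the line gave 3 lower genes without auxin replicate 1 (3.2% of all genes lower), and 4 without auxin replicate 2 (2.43%), untreated replicate 1 (2.78%) or untreated replicate 2 (2.79%).

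Of the 33 genes, 23 (69.7%) had a negative log2 change in all 4 lines, against 29.4% of all genes tested, and 2 a positive one. DHCR7, FADS1, HMGCS1, INSIG1, LSS, MSMO1, MVK and SCD were lower past the test in each line, which is 8 of 33 (24.2%), against 2.76% of all genes. Without DeltaZ1 auxin replicate 2, which leaves 1 auxin library of that line, 25 genes had a negative change in all 4 lines (75.8%, against 28.8% of all genes). Each line has its own untreated libraries, so these counts do not share controls.

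**Figure D4:**
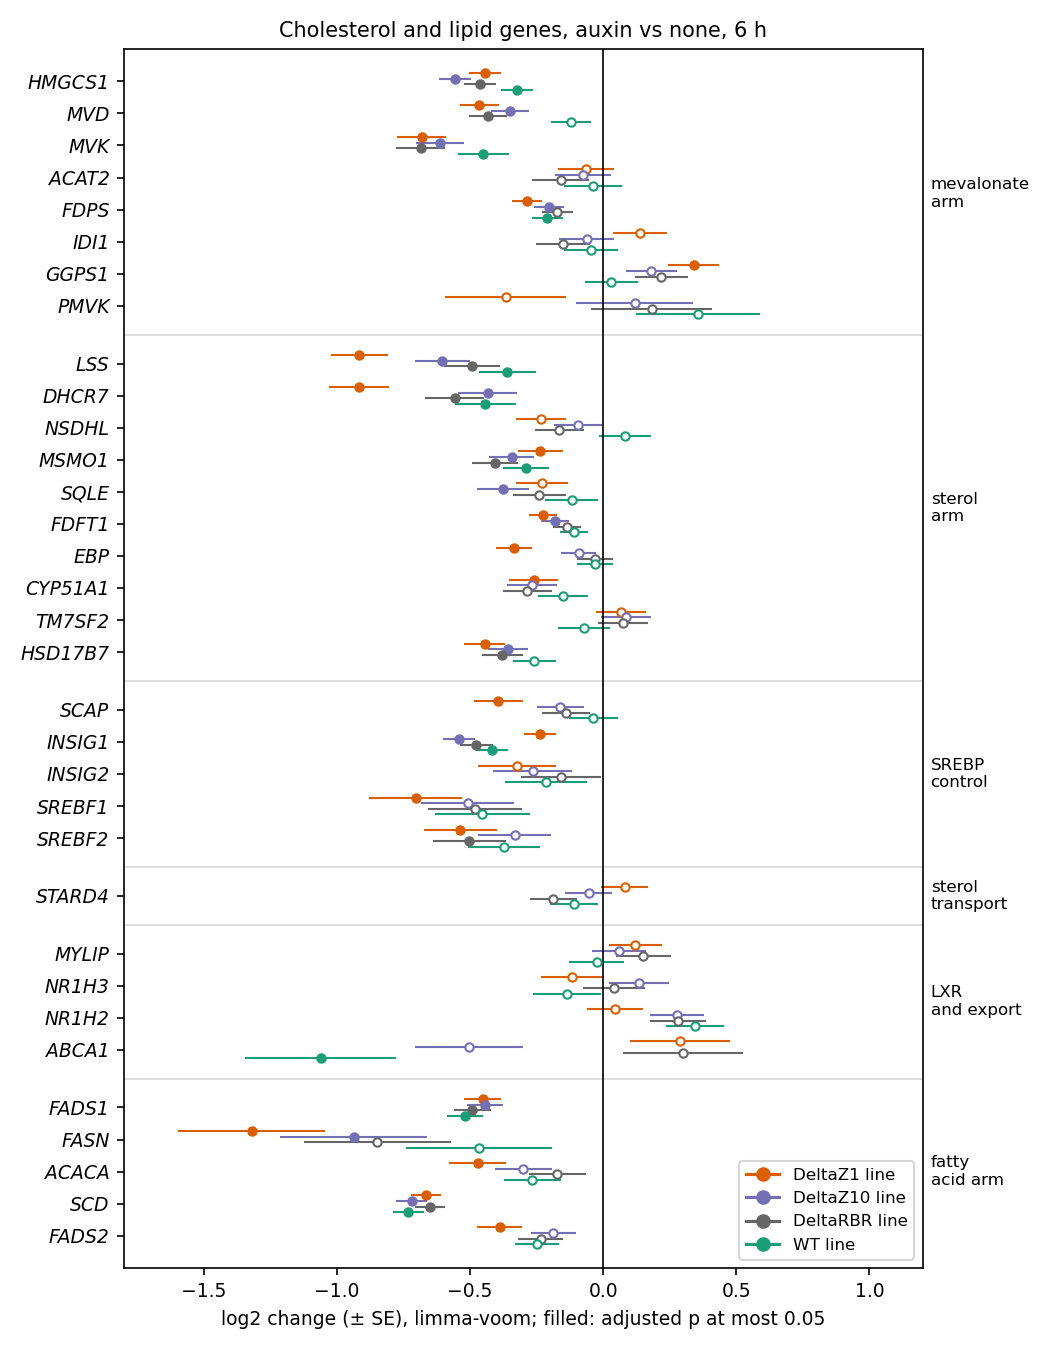
Log2 change with SE of the 33 tested genes for auxin against none at 6 h in the DeltaZ1, DeltaZ10, DeltaRBR and WT lines, by arm. Filled points passed the test. DHCR7, FADS1, HMGCS1, INSIG1, LSS, MSMO1, MVK and SCD are filled and left of 0 in all 4 lines.

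Whether the deletions alter the auxin effect was tested by subtracting the log2 change of the WT line from that of each deletion line. These 3 comparisons share the WT line libraries. With limma 0 genes of the 33 passed in any of them. For DeltaZ1 the background was 0.259% of all genes positive and 0.0719% negative, for DeltaZ10 0.0144% and 0.0288%, and for DeltaRBR 0.0% and 0.0%. At an unadjusted p under 0.05 there were 10 genes for DeltaZ1, 2 for DeltaZ10 and 2 for DeltaRBR (30.3%, 6.06% and 6.06%), against 17.3%, 2.81% and 2.52% of all genes. The edgeR test gave 0 in each, and DESeq2 gave 1 for DeltaZ1, LSS, and 0 for the others. LSS had a limma difference of -0.56 (SE 0.15, adjusted p = 0.12) for DeltaZ1, and FASN of -0.85 (SE 0.39, adjusted p = 0.287). For DeltaZ1, 16 genes passed without auxin replicate 1, which leaves replicate 2 as the lone auxin library of that line, assumed to vary like the other groups. In that fit 31.0% of all genes passed. Without replicate 2, replicate 1 is likewise the lone auxin library, and the difference was -0.35 for LSS and -0.26 for FASN.

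Without auxin, none of the 33 genes passed the test between a deletion line and the WT line. The count was 0 in the DeltaZ1, DeltaZ10 and DeltaRBR lines with limma, edgeR or DESeq2, against a background of 0.0% of all genes higher and 0.0% lower in each with limma. At an unadjusted p under 0.05 there were 2 genes in DeltaZ1, 1 in DeltaZ10 and 3 in DeltaRBR (6.06%, 3.03% and 9.09%), against 3.71%, 4.17% and 5.14% of all genes.

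Set side by side, 18 genes were lower past the test both in CTCFAID2 cells at 24 h and in the mean of the lines at 6 h, and GGPS1 and NR1H2 were higher in both. Of all genes, 29.5% were lower and 29.2% higher at 24 h, and 26.4% lower and 25.1% higher at 6 h. The share of all genes called alike in both was not counted, so the overlap of these genes has no background. ACAT2, MYLIP, NSDHL, STARD4 and TM7SF2 were lower past the test at 24 h and not past it at 6 h, and FADS2, INSIG2 and SREBF1 the other way round. SREBF2 was lower at 6 h and higher at 24 h. PMVK and ABCA1, whose direction at 24 h the filter fixed, were higher at 24 h and did not pass at 6 h. Some of these contrasts rested on DeltaZ1 auxin replicate 2: without it 20 genes were lower in both, ACAT2 and STARD4 among them, and 3 were higher in both, PMVK among them. The sets differ in cells, time and added CTCF, and no test was made between them.

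**Figure D5:**
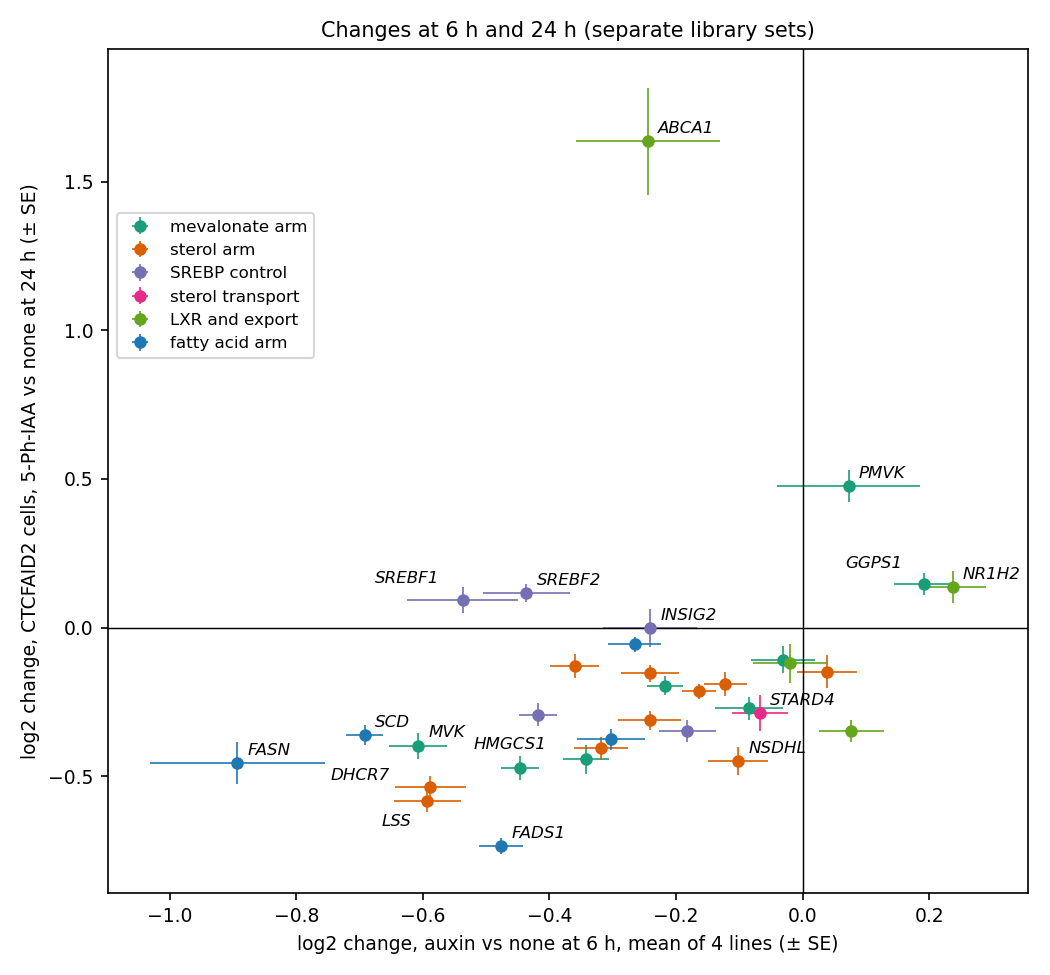
Log2 change with SE of the 33 tested genes in CTCFAID2 cells at 24 h (vertical axis) against the mean of the 4 lines at 6 h (horizontal axis), colored by arm. With all libraries, the points of the 18 genes lower in both lie below and left of 0, and SREBF2 lies above 0 at 24 h and left of 0 at 6 h.

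Some of these genes overlap another tested gene. TM7SF2 overlaps VPS51 and FADS2 overlaps FEN1 on the same strand, where counting by strand does not separate their reads. On the opposite strand, where reads cannot be told apart unless counting used strand, which is not stated, overlaps were found for ACAT2 (with TCP1), CYP51A1 (AKAP9), DHCR7, FADS1 and FADS2 (each other), FDFT1, FDPS (RUSC1-AS1), GGPS1 (ARID4B), MVK (MMAB), NR1H2 (NAPSA and NAPSB), NR1H3 (ACP2), SREBF1 (RAI1) and SREBF2 (SREBF2-AS1). These are 14 genes in all. ACACA had no position here and was not checked.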

How the data were processed

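RNA-seq of 28 libraries of SEM cells was analyzed from the values the authors deposited. The submitters' processing notes and the methods name Trim Galore 0.6.3 for trimming, STAR 2.7.9a for alignment (hg19) and RSEM 1.3.1 with Gencode genes for quantification. Expected counts, estimated by RSEM for each gene and not normalized, were deposited, and TPM values deposited by the authors beside them were used only for levels between genes. The labels name a 3′ library kit and the methods a total stranded RNA-seq, which bears on TPM. Series tables repeat the values of the 6 h set and were not used for tests. No sample column was left unused (0).

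Counts were rounded, 92 spike-in entries with 0 counts were left out, and a gene was tested where any library exceeded 1 CPM, 13973 at 24 h and 13902 at 6 h. A single limma 3.58.1 fit was made per set (voom, TMM factors from edgeR 4.0.16, R 4.3.3) with a mean per group, all groups sharing the estimate of spread. P-values were adjusted by Benjamini-Hochberg over all genes, with a threshold of 0.05. CPM are TMM-normalized. The 14 comparisons were auxin against none per line, their mean at 6 h, differences between lines, and untreated deletion lines against the WT line. Alternatives were DESeq2 1.42.0, edgeR's quasi-likelihood test, library sizes alone, RLE factors, a filter in every library, no filter, only the groups compared, the replicate block and leaving out each library. The fit was tested on simulated data.

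The genes, lists, tests and alternatives were chosen with earlier results of these data known. Full statistics were given for genes past the test with the largest log2 changes (at most 10 per direction for the 24 h comparisons and the 6 h mean, 3 elsewhere), and SREBF1, SREBF2, INSIG1, ABCA1 and SCD were named at 24 h whatever their test. Values of other genes account for all 34. Of the other lipid genes, at most 4 per 24 h comparison were named. At a total of 25.8 M counts or more, counting noise matters mainly near the filter.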

Additional observations from a re-analysis of the deposited data

Results flagged for a closer look

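Among 66 groups of 4 libraries (33 genes in treated and untreated CTCFAID2 cells), 2 held a library far from the other 3, where chance gives about 1 in 20. HMGCS1 was at 272 CPM in untreated replicate 3, against 249 to 252 CPM in the other untreated libraries, a gap of 0.858 of the range. FADS2 was at 489.5 CPM in untreated replicate 1, against 483 to 484 CPM, a gap of 0.875 of the range.

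The 24 h effect of auxin differed between CTCFAID2 and WT cells, by the test of the difference itself in limma, for 26 genes. The differences, on the log2 scale and as the effect in CTCFAID2 cells minus that in WT cells, were -0.93 for FADS1, -0.85 for LSS, -0.82 for MYLIP, -0.80 for MVD, -0.73 for DHCR7, -0.67 for MSMO1, -0.65 for MVK, -0.59 for INSIG1, -0.56 for HMGCS1, -0.54 for SQLE and -0.54 for STARD4. Smaller ones were -0.45 for HSD17B7, -0.43 for FASN, -0.41 for CYP51A1, -0.41 for TM7SF2, -0.40 for SCAP, -0.38 for SCD, -0.35 for FDFT1, -0.33 for NSDHL, -0.31 for ACAT2, -0.20 for ACACA, -0.19 for FDPS and -0.13 for FADS2. Positive ones were 0.64 for PMVK, 0.20 for GGPS1 and 2.87 for ABCA1, which passed the filter on low values through the treated CTCFAID2 libraries alone. Compound, dose and doxycycline differ with the line, and their part was not tested.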

How the results depend on the processing

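Of the changes of named genes under the alternatives, 1008 kept their direction and side of the threshold, 49 kept the direction but no longer passed and 0 reversed. The counts of genes past the test moved by over 1.5 times in the following cases. In the WT line at 6 h the 10 calls became 5 without a filter, where 620 of all 31253 genes were higher and 618 lower. With only the groups compared they became 19, against 1728 higher and 1733 lower of 13550. In the DeltaZ1 line the 21 calls became 0 with only the groups compared, against 2 higher and 0 lower of 13565. With DESeq2 the DeltaZ1 difference had 1 call in place of 0, against 235 higher and 151 lower of all 13902 genes. Leaving out 1 library gave 27 to 29 calls for CTCFAID2 cells at 24 h, 8 to 14 for WT cells, 22 to 27 for their difference, 3 to 17 for the WT line, 14 to 23 for DeltaZ1, 7 to 20 for DeltaZ10, 6 to 22 for DeltaRBR, 24 to 27 for the mean at 6 h and 0 to 16 for the DeltaZ1 difference, and 0 in the other differences and untreated comparisons. These include the fits without DeltaZ1 auxin replicate 2, which for the other lines were chosen after seeing the data. That fit gave the highest counts in the WT line, DeltaZ10 and DeltaRBR. There 24.2%, 32.2% and 23.5% of all genes passed, more than with all libraries. For CTCFAID2 cells, 54.6% to 59.5% of all genes passed when 1 of their libraries was left out. The share of all genes past the test thus moved too, and a range alone does not show how stable the listed genes are. The cause was not tested. Same-numbered libraries correlated at r = -0.20 to 0.11 at 24 h and, at 6 h, at -0.08 in DeltaZ1 and 0.13 to 0.15 in the other lines, so the numbers, which the labels tie to nothing shared, were not taken to pair them. With the replicate block, 28 genes passed in CTCFAID2 cells, 12 in WT cells, 25 in their difference, 24 in the mean at 6 h, 10 in the WT line, 19 in DeltaZ1, 14 in DeltaZ10, 11 in DeltaRBR and 0 in the other comparisons. Of all 13973 genes at 24 h, 3996 were then higher and 3992 lower in CTCFAID2 cells. In WT cells they were 1159 and 1198, and in the difference 2591 and 2772. Of all 13902 genes at 6 h, 3438 were higher and 3611 lower in the mean, and 834 and 928 in the WT line. They were 2256 and 2148 in DeltaZ1, 1109 and 1164 in DeltaZ10, and 610 and 730 in DeltaRBR. Depth limits mainly ABCA1 and ABCG1.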
